A study of Mus musculus with 8 samples.

Results

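Voltage-gated potassium channels and their accessory subunits were examined in RNA-seq read counts from mouse enamel organs. The members were the protein-coding genes of the deposited table whose symbols begin with Kcna, Kcnab, Kcnb, Kcnc, Kcnd, Kcne, Kcnf, Kcng, Kcnh, Kcnip, Kcnq, Kcns or Kcnv, and 52 of the 54532 listed genes were members. Inward rectifier, two-pore and calcium-activated K+ channel genes do not carry these symbols and were not included. First molars were taken from untreated wt C57BL/6 pups at P5, the secretory stage, and at P12, the maturation stage, and each age had 4 libraries, numbered 1, 3, 4 and 5 at P5 and 1 to 4 at P12. Each library was made from the enamel organs of 5 pooled pups, so a value is a mean over pups and no library can be tied to a single animal. RNA was taken from the whole enamel organ after the soft tissue of the pulp had been removed, and the sex of the pups was not given.

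Voltage-gated K+ channels open when the membrane depolarizes and let K+ leave the cell. A channel is built from alpha subunits around a pore, and the alpha genes fall into the Kv1 to Kv4 groups (Kcna, Kcnb, Kcnc and Kcnd), the Kv7 group (Kcnq) and the EAG, ERG and ELK group (Kcnh). Alpha subunits of the Kcnf, Kcng, Kcns and Kcnv groups form no working channel alone and are called silent, because they change the properties of Kv2 channels that they join. Accessory subunits do not line the pore: Kcnab genes encode cytoplasmic beta subunits, Kcne genes encode small proteins with a single membrane span, and Kcnip genes encode the calcium-binding KChIP proteins that bring Kv4 channels to the membrane and shape their current. These genes are best known from nerve, muscle and heart, and several also act in transporting epithelia. The study used the comparison of P5 with P12 to look for K+ channels that could take K+ out of the enamel matrix while enamel matures.

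The selectivity filter is the part of the pore that all alpha subunits share, and its codons show which kind of channel each gene encodes. In the longest complete coding sequence of each gene in GENCODE M21 (mouse assembly GRCm38), a filter stretch was found for 40 of the 40 alpha members. The middle codon was a tyrosine codon in 32 of them and a phenylalanine codon in the other 8, which are the Kcnh genes. The stretches of 33 coding bases below are from genes on which the results turn, 5′ to 3′ on the coding strand, with the glycine, middle and glycine codons in capitals. They lie at chr3:107037605-107037637 (Kcna3, forward strand), chr1:192337748-192337780 (Kcnh1, forward), chr5:24325543-24325575 (Kcnh2, reverse), chr15:99232923-99232955 (Kcnh3, forward) and chr2:164164842-164164874 (Kcns1, reverse).
Kcna3: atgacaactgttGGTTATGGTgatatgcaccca
Kcnh1: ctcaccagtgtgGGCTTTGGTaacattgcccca
Kcnh2: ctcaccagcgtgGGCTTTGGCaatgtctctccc
Kcnh3: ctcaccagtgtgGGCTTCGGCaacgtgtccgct
Kcns1: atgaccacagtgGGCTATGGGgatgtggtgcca
Every one of these stretches lies in a single exon. Close relatives among these genes share coding sequence, and the counting could split their reads.

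Libraries held 16574548 to 22013456 counts in total. Levels below are TMM-normalized counts, expressed for a library of average effective size, unless a length is named. The 4 secretory ameloblast markers Amelx, Ambn, Enam and Mmp20 fell together from a summed level of 4966559 to 5580346 at P5 to between 237041 and 621683 at P12, and the 4 maturation markers Klk4, Amtn, Odam and Slc24a4 rose from a summed level of 12681 to 43951 to one of 354258 to 477588. The libraries also held RNA of other cells, with summed levels of 6 odontoblast and osteoblast markers between 866336 and 1219872 over the 8 libraries. In such a mixture fewer cells of a type and less RNA per cell cannot be told apart. P5 replicate 5 had the lowest summed maturation markers at P5, with 36597 or more in the other libraries, and P12 replicate 4 had the lowest summed oral epithelium markers at P12, 3298 against 19523 to 31165. The counts of changed members, partner genes and markers below are therefore also given without these libraries where they differ.

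Among the voltage-gated K+ channel genes more fell than rose between P5 and P12. Of the 52 members 38 had enough counts to be tested, and 20 of these were lower and 8 were higher at P12 (edgeR's quasi-likelihood test, adjusted p under 0.05 after Benjamini-Hochberg adjustment over all genes tested). Lower members made up 52.6% of those tested, where 28.4% of the 16440 genes tested were lower, and higher members made up 21.1%, where 28.8% of all genes were higher, so that 28 of 38 members passed the threshold in either direction where 57.2% of all genes did. The median log2 fold change of the tested members was -0.89, against 0.01 over all genes tested. The largest falls were those of Kcnip1, Kcnip2, Kcnh3 and Kcna3, and the largest rises were those of Kcns1, Kcne4, Kcnh2 and Kcna1. Libraries of the 2 ages did not overlap for 26 of the 38 members, 17 lower and 9 higher at P12, where 52.5% of all genes tested did not overlap (26.6% lower and 26.0% higher). Without P5 replicate 5 and P12 replicate 4, 18 members were lower and 7 were higher of 37 tested, where 29.1% of all genes tested were lower and 29.5% higher. This was 1 of 18 alternative fits with other tools, scalings, filters and left-out libraries. Scaled by total count alone, which moved the median over all genes from 0.01 to 0.38, 17 members were lower and 13 higher, where 14.2% of all genes tested were lower and 54.0% higher, and no member past the threshold in the TMM fit changed its direction.

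**Figure D1:**
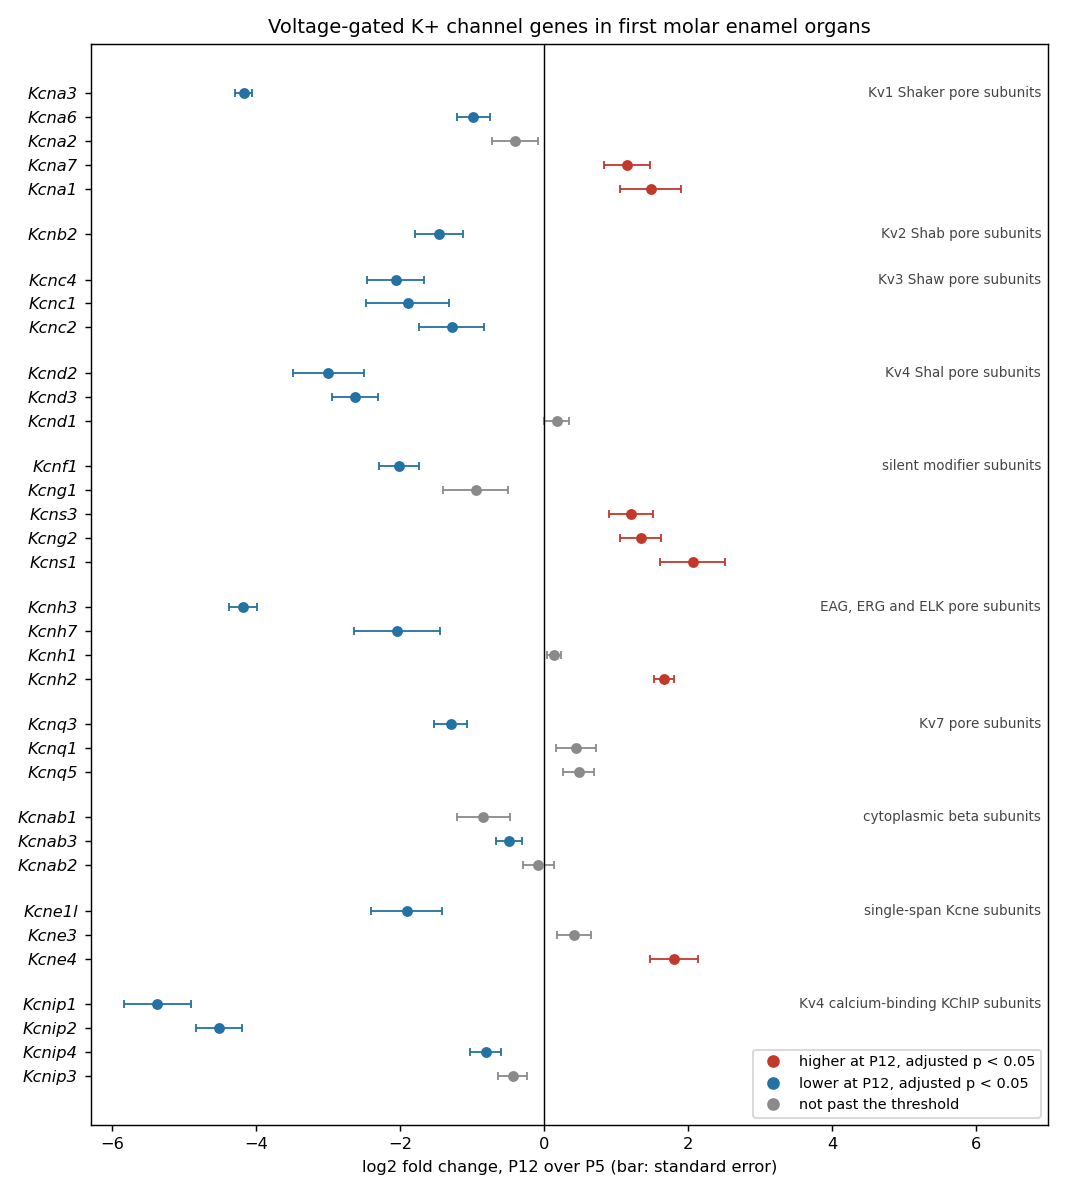
Log2 fold change of 34 tested members between P5 and P12 (x axis, positive is higher at P12), grouped by role, with bars for the standard error of the fit over 4 libraries per age. Red points are members higher and blue points members lower at P12 at an adjusted p under 0.05, and Kcnip1, at -5.37, lies farthest from zero.

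Kcna3, which encodes the Kv1.3 channel best known from T lymphocytes, had the highest level per kilobase of exon among the Kv1 genes at P5 and fell 18-fold. The gene (ENSMUSG00000047959) occupies bases 107036169 to 107038070 of chromosome 3 (GRCm38, forward strand) and shares no exonic base with another gene. Its level was 887, 863, 837 and 689 in P5 replicates 1, 3, 4 and 5, and 44.7, 39.7, 45.4 and 52.2 in P12 replicates 1 to 4. All P12 libraries lay far below all P5 libraries, and P5 replicate 5 was the lowest at its age. The log2 fold change was -4.17 (SE 0.12, edgeR adjusted p = 7.0e-10), with a range of -4.31 to -3.80 over 18 alternative fits. The T cell genes Cd3e and Cd3g had levels of at most 3.95 and 6.71 at P5, and at most 4.02 and 5.91 at P12. The other 2 genes of the T and B cell list were detected and were higher at P12, Ptprc at 111 to 174 and then 171 to 257 and Cd79a at 19.1 to 72.0 and then 79.7 to 200.9. In a neighbouring member of the Kv1 group, Kcna6, the level was 59.1, 98.4, 92.3 and 95.3 at P5 and 46.9, 51.5, 30.6 and 45.2 at P12, without overlap, a log2 fold change of -0.98 (SE 0.23, edgeR adjusted p = 0.0031). Of the exonic bases of Kcna6, 39.6% also lie in exons of the antisense gene Gm26673, which had at most 4 counts in any library.

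Kcna7 and Kcna1 went the other way, at low levels. Kcna7, known from heart and skeletal muscle, was at 21.9, 12.3, 15.8 and 9.53 in the P5 libraries and at 35.2, 43.9, 23.2 and 28.1 in the P12 libraries, which did not overlap, although the highest P5 and the lowest P12 values were close. Its log2 fold change was 1.15 (SE 0.32, edgeR adjusted p = 0.010). The 5 skeletal muscle markers that could be tested were all lower at P12, with a summed level over 6 markers of 674 to 1184 at P5 and 319 to 407 at P12, and 3 of the 5 were lower with total count scaling. Kcna1, which encodes the axonal Kv1.1 channel, had 2, 7, 6 and 5 counts at P5 and 33, 12, 14 and 19 counts at P12 before normalization. This was a log2 fold change of 1.48 (SE 0.43, edgeR adjusted p = 0.012), and it lay between 1.21 and 1.84 over the alternatives. Kcna2, another axonal Kv1 gene, was at 36.9 ± 13.8 (SD, n = 4) and 27.6 ± 9.07 (SD, n = 4), and its libraries overlapped (log2 fold change -0.40, edgeR adjusted p = 0.30).

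The Kv2 genes encode slow delayed rectifier channels, and Kcnb2 was lower at P12. Kcnb2 was at 46.3, 55.9, 50.1 and 66.7 in the P5 pools, against 17.6, 9.28, 20.4 and 33.1 in the P12 pools, without overlap and with a log2 fold change of -1.46 (SE 0.33, edgeR adjusted p = 0.0028).

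Of the silent subunits that join Kv2 channels, 3 rose while Kcnb2 fell. Kcns1 had the largest rise of all members. Its level was 6.43, 5.59, 1.32 and 15.9 in the P5 libraries, from 5, 5, 1 and 15 counts, and 34.5, 39.7, 25.9 and 27.1 in the P12 libraries. The log2 fold change of Kcns1 was 2.06 (SE 0.46, edgeR adjusted p = 0.0024), and it was 2.78 without P5 replicate 5. Kcng2 (ENSMUSG00000059852) was at 16.7, 36.9, 23.7 and 19.1 at P5 and at 71.9, 63.3, 64.9 and 44.2 at P12, with a log2 fold change of 1.34 (SE 0.28, edgeR adjusted p = 0.0017). Kcns3 rose from 8.999, 10.1, 10.5 and 12.7 in the P5 pools to 32.3, 22.8, 16.7 and 26.1 in the P12 pools, a log2 fold change of 1.20 (SE 0.30, edgeR adjusted p = 0.0055). Kcnf1 was the silent subunit that fell, from 34.7, 51.4, 35.6 and 45.5 at P5 to 7.33, 11.0, 11.1 and 12.05 at P12 (log2 fold change -2.02, SE 0.27, edgeR adjusted p = 7.6e-05). Kcng1 was at 14.1, 27.9, 18.5 and 59.3 at P5 and at 10.2 to 21.3 at P12, and it did not pass the threshold (log2 fold change -0.96, edgeR adjusted p = 0.088) unless P5 replicate 1 was left out (-1.19, adjusted p = 0.041). The ages did not overlap for the 4 silent subunits that passed the threshold, whereas those of Kcng1 did.

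The Kv3 genes Kcnc1, Kcnc2 and Kcnc4, from a group whose fast channels let neurons fire at high rates, were lower at P12. Kcnc4 fell from 20.6, 47.0, 56.7 and 41.3 to 5.13, 16.0, 8.34 and 10.04 without overlap, a log2 fold change of -2.06 (SE 0.40, edgeR adjusted p = 9.8e-04). Kcnc1 varied widely within an age, at 23.1, 98.4, 59.3 and 61.4 at P5 and at 5.87, 5.06, 21.3 and 35.1 at P12. The ages of Kcnc1 overlapped (exact permutation test, two-sided p = 0.057), and its log2 fold change of -1.89 (SE 0.58, edgeR adjusted p = 0.015) no longer passed the threshold without P5 replicate 3 (-1.56, adjusted p = 0.060) and was -2.54 without P12 replicate 4. Kcnc2 was low, at 8.999, 14.5, 14.5 and 13.8 at P5 and at 4.399, 3.38, 2.78 and 11.0 at P12, and its call (log2 fold change -1.29, edgeR adjusted p = 0.029) was lost in 10 of 16 alternative fits. Those 10 include 6 of the fits that left out a single library, P5 replicate 3, 4 or 5 or P12 replicate 1, 2 or 3, with adjusted p values up to 0.081.

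In the Kv4 group and its partners, Kcnd2, Kcnd3, Kcnip1, Kcnip2, Kcnip4, Dpp6 and Dpp10 fell, and Kcnd1 and Kcnip3 did not pass the threshold. Kv4 channels carry fast A-type currents and work as complexes of Kcnd pore subunits with KChIP and dipeptidyl peptidase-like proteins. Kcnd2 was at 43.7, 55.9, 77.8 and 68.8 in the P5 libraries and at 1.47, 5.06, 7.41 and 18.1 in the P12 libraries (log2 fold change -3.00, SE 0.49, edgeR adjusted p = 3.1e-04). Kcnd3 was at 84.8, 133, 159.5 and 207 at P5 and at 15.4, 21.1, 23.2 and 36.1 at P12 (log2 fold change -2.63, SE 0.32, edgeR adjusted p = 3.3e-05). Both genes were highest at P12 in replicate 4, and neither overlapped between the ages. Without P12 replicate 4 the log2 fold change of Kcnd2 was -3.75. Kcnd1 differed from them, with 60.0 ± 1.90 in the 4 P5 pools and 67.4 ± 10.1 in the 4 P12 pools (mean ± SD), overlapping libraries, a log2 fold change of 0.17 and an edgeR adjusted p of 0.42. Total count scaling gave Kcnd1 a log2 fold change of 0.55 (edgeR adjusted p = 0.020).

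Kcnip2, which encodes KChIP2, had the highest level per kilobase of exon among the KChIP genes at P5, and Kcnip1 was nearly absent at P12. Kcnip2 (ENSMUSG00000025221, chromosome 19, 45791839 to 45816061 on the reverse strand) was at 219.8, 333, 320.3 and 556 in the P5 libraries and at 11.0, 14.3, 22.2 and 15.1 in the P12 libraries. The fall of Kcnip2 was 23.0-fold, a log2 fold change of -4.52 (SE 0.32, edgeR adjusted p = 4.7e-07). Kcnip1 (ENSMUSG00000053519, chromosome 11, 33629339 to 33993152 on the reverse strand) had 53, 66, 55 and 119 counts in the P5 libraries and 2, 5, 2 and 0 counts in the P12 libraries. The log2 fold change of Kcnip1 was -5.37 (SE 0.47, edgeR adjusted p = 2.5e-06), and it was -6.05 without P12 replicate 2 and -4.78 without both P5 replicate 5 and P12 replicate 4. Both genes were highest at P5 in replicate 5. Kcnip4 fell less, with 43.7, 54.8, 47.5 and 52.9 in the P5 pools, 32.3, 32.9, 23.2 and 24.1 in the P12 pools and no overlap (log2 fold change -0.82, edgeR adjusted p = 0.0074), and the call was lost with total count scaling (-0.44, adjusted p = 0.11). Of the exon sequence of Kcnip4 7.36% is shared with antisense genes, and 5730480H06Rik among them had 187 to 333 counts per library, more than Kcnip4 itself. Kcnip3, whose protein DREAM also binds DNA, was at 114, 171, 100.2 and 152 at P5 and at 77.0, 98.7, 106 and 118 at P12, with overlapping libraries (log2 fold change -0.44, edgeR adjusted p = 0.082), and it passed the threshold without P5 replicate 4 (-0.56, adjusted p = 0.036) and without P12 replicate 4 (-0.54, adjusted p = 0.037).

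The non-channel Kv4 partners Dpp6 and Dpp10 belong to a list of 20 genes whose products bind, traffic or regulate voltage-gated K+ channels. Dpp10 was at 278, 303, 294 and 428 in the P5 libraries and at 7.33, 14.3, 8.34 and 8.03 in the P12 libraries (log2 fold change -5.08, SE 0.23, edgeR adjusted p = 2.0e-08). Dpp6 was at 79.7, 121, 89.6 and 127 at P5 and at 8.06, 5.06, 8.34 and 35.1 at P12 (log2 fold change -2.93, SE 0.47, edgeR adjusted p = 2.8e-04). The ages of neither gene overlapped, and P12 replicate 4 was the highest at P12 for Dpp6 as it was for Kcnd2 and Kcnd3. Without P5 replicate 5 and P12 replicate 4 the log2 fold change of Dpp6 was -3.74.

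**Figure D2:**
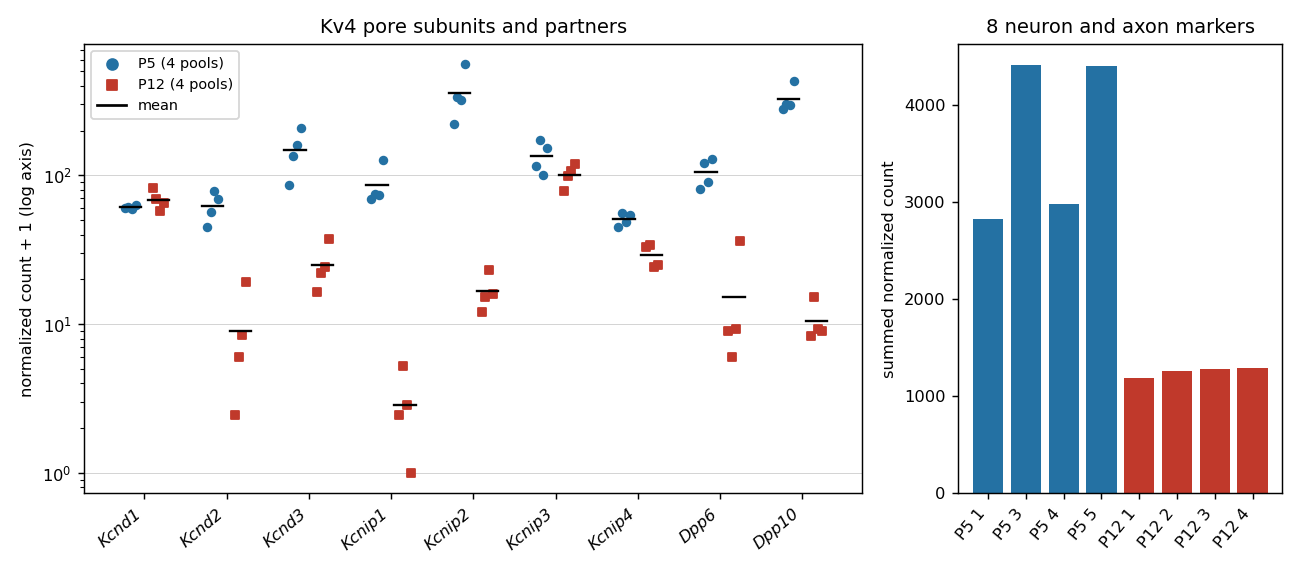
Left, normalized count plus 1 (log axis) of the Kv4 pore genes, the KChIP genes, Dpp6 and Dpp10 in each library, with blue circles for the 4 P5 pools, red squares for the 4 P12 pools and a black line at the mean. Right, the summed normalized count of 8 neuron and axon markers in each library; Kcnd2, Kcnd3, Kcnip1, Kcnip2, Dpp6 and Dpp10 are lower in every P12 pool, Kcnd1 and Kcnip3 overlap, and the marker sum is 2819 to 4405 at P5 and 1192 to 1293 at P12.

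Over the whole partner list of 20 genes, 8 were lower and 4 were higher at P12 by the same test, where 28.4% of all genes were lower and 28.8% higher, with a median log2 fold change of -0.16, and without P5 replicate 5 and P12 replicate 4 these counts were 10 and 5. Sgk1, a kinase that acts on many ion channels and transporters, rose most, from between 1179.8 and 1436 at P5 to between 8889 and 16173 at P12 (log2 fold change 3.16, SE 0.18, edgeR adjusted p = 9.9e-08). Nedd4l, a ubiquitin ligase that Sgk1 inhibits and that acts on Kv7 channels, fell from between 762 and 849.9 to between 424 and 474 (log2 fold change -0.84, SE 0.07, edgeR adjusted p = 1.2e-06). The smaller changes of the list depended on the scaling. With total counts alone 9 partner genes were higher and 3 lower, and these 3 were Dpp6, Dpp10 and Nedd4l.

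The Kcnh genes parted into opposite directions. Kcnh2 encodes the ERG channel that repolarizes the heart, and it rose in every P12 library. The gene (ENSMUSG00000038319) lies on chromosome 5, from 24319589 to 24351604 on the reverse strand, and shares no exonic base with another gene. Its level was 212, 241, 186 and 206 at P5 and 572, 635, 613 and 874 at P12, a 3.18-fold rise (log2 fold change 1.67, SE 0.14, edgeR adjusted p = 1.8e-06). The lowest P12 library was well above the highest P5 library, and P12 replicate 4 was the highest. Kcnh3 (ENSMUSG00000037579, chromosome 15, 99224861 to 99242817 on the forward strand), an ELK channel gene known from the forebrain, was at 302, 361, 331 and 489 at P5 and at 19.1, 23.6, 21.3 and 17.1 at P12. It fell 18.2-fold, with a log2 fold change of -4.18 (SE 0.19, edgeR adjusted p = 1.9e-08). Per kilobase of exon, Kcnh3 was above Kcnh2 in every P5 library and far below it in every P12 library.

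Kcnh1, which encodes the EAG channel, gave more reads than any other member at both ages, without regard to length. It was at 1655, 1679, 1820.4 and 1803 in the P5 libraries and at 1823, 1621, 1891 and 2326 in the P12 libraries. The ages overlapped, and P12 replicate 4 was the highest of all 8 libraries. The paper reported Kcnh1 among the outward K+ channels that were upregulated at the maturation stage. The log2 fold change of 0.14 (SE 0.10, edgeR adjusted p = 0.25) passed the threshold in 1 of 18 alternative fits, that with total count scaling (0.51, adjusted p = 2.8e-04). Kcnh7, a second ERG gene, fell from 16.7, 30.2, 14.5 and 38.1 to 2.20, 0.844, 10.2 and 12.05 (log2 fold change -2.04, SE 0.60, edgeR adjusted p = 0.012).

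In the Kv7 group Kcnq3, known for its part in the M-current that restrains repeated firing of neurons, was lower at P12. Kcnq3 was at 70.7, 95.0, 77.8 and 115 at P5 and at 44.7, 40.5, 26.9 and 33.1 at P12 (log2 fold change -1.30, SE 0.23, edgeR adjusted p = 5.1e-04). The ages did not overlap, and P5 replicates 3 and 5 were the highest.

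Kcnq1 and Kcnq5 did not pass the threshold in the TMM fit. Both passed it as higher at P12 with total count scaling (edgeR adjusted p = 0.021 and 0.0048), where 54.0% of all genes tested were higher. Kcnq1, the Kv7 gene of heart and of secretory epithelia, was at 26.5 ± 3.18 in the 4 P5 pools and at 36.2 ± 10.7 in the 4 P12 pools (mean ± SD), with overlapping libraries (log2 fold change 0.44, edgeR adjusted p = 0.20). The antisense RNA Kcnq1ot1 shares 2.96% of this gene's exon sequence and had 250 to 450 counts per library against 17 to 49 for Kcnq1. Kcnq5 was at 31.6 to 45.0 at P5 and at 45.2 to 69.5 at P12, without overlap, but with a log2 fold change of 0.48 (SE 0.21) its edgeR adjusted p was 0.075.

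Of the Kcne genes Kcne4 rose and Kcne1l fell. Kcne4, whose protein inhibits some Kv1 and Kv7 channels, was at 12.9, 10.1, 30.3 and 14.8 in the P5 libraries and at 77.7, 48.9, 48.2 and 60.2 in the P12 libraries (log2 fold change 1.80, SE 0.33, edgeR adjusted p = 7.6e-04). The P12 libraries were all above the P5 libraries, with P5 replicate 4 the highest at its age. Kcne1l, also called Kcne5, was at 24.4, 32.4, 46.1 and 10.6 at P5 and at 8.80, 3.38, 5.56 and 12.05 at P12 (log2 fold change -1.91, SE 0.49, edgeR adjusted p = 0.0059), and the ages overlapped through the low value of P5 replicate 5. Kcne3, which keeps Kcnq1 open in intestinal and airway epithelium, was at 42.3 to 69.4 at P5 and at 59.9 to 104 at P12. It did not pass the threshold (log2 fold change 0.41, edgeR adjusted p = 0.16), except as higher at P12 with total count scaling (edgeR adjusted p = 0.011). Kcne1 had 0 counts in all P5 libraries and between 1 and 3 counts in the P12 libraries, which is at or under a floor of 3 counts, so a change was not detectable at this depth.

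The cytoplasmic beta subunits changed little. Kcnab3 was at 96.4, 96.1, 85.7 and 116 at P5 and at 69.7, 54.8, 82.5 and 75.3 at P12. The ages did not overlap, but the log2 fold change of -0.49 (SE 0.18, edgeR adjusted p = 0.035) missed the threshold in 10 of 18 alternative fits. These included total count scaling and the fit without both P5 replicate 5 and P12 replicate 4. Fits without P5 replicate 1, 3 or 5 or P12 replicate 1 or 2 also missed it, with adjusted p values up to 0.095. Over all alternative fits the log2 fold change of Kcnab3 lay between -0.57 and -0.12, with adjusted p values up to 0.57. Kcnab2 was at 97.7, 139.7, 81.7 and 106 at P5 and at 129.8, 90.3, 72.3 and 108 at P12, with overlap (log2 fold change -0.09, SE 0.22, edgeR adjusted p = 0.76), a difference that changed sign with total count scaling. Kcnab1 was at 12.3 to 21.9 at P5 and at 5.56 to 14.3 at P12 (log2 fold change -0.85, edgeR adjusted p = 0.072), and it passed the threshold without P12 replicate 2 (-1.13, adjusted p = 0.036).

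**Figure D3:**
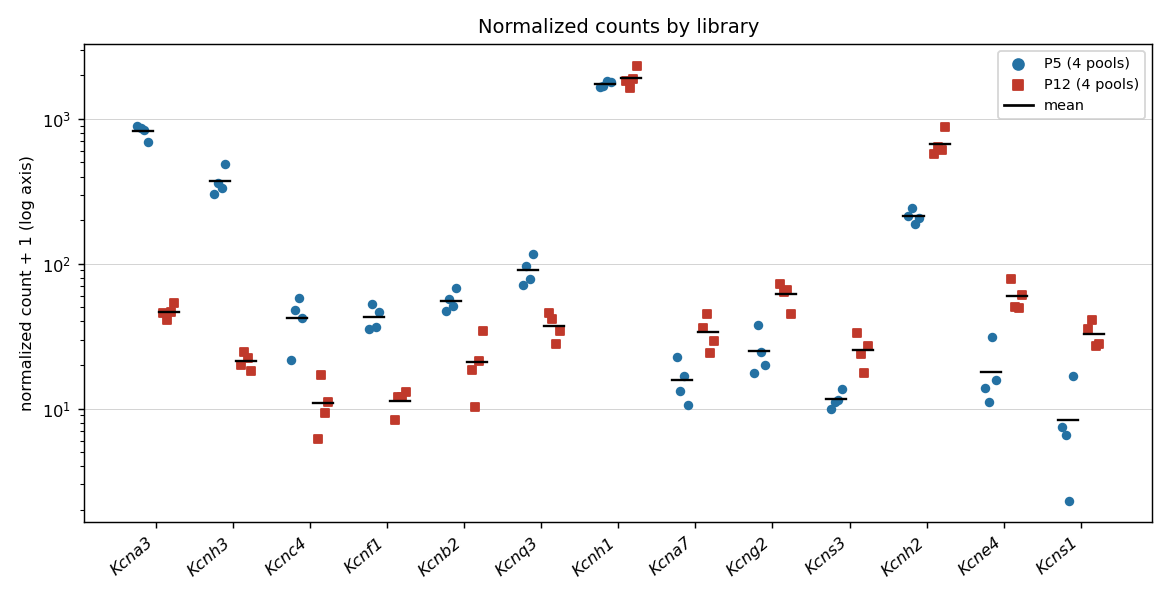
Normalized count plus 1 (log axis) of 13 members in each library, with blue circles for the 4 P5 pools, red squares for the 4 P12 pools and a black line at the mean. Kcna3, Kcnh3, Kcnc4, Kcnf1, Kcnb2 and Kcnq3 lie lower and Kcna7, Kcng2, Kcns3, Kcnh2, Kcne4 and Kcns1 lie higher in all P12 pools, and Kcnh1 overlaps.

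Levels of different genes were compared as normalized counts per kilobase of exon. Among the members described above, P5 levels were 431 ± 46.8 (SD, n = 4) for Kcna3, 237 ± 11.5 for Kcnh1, 103 ± 40.8 for Kcnip2, 64.4 ± 14.3 for Kcnh3 and 43.6 ± 4.74 for Kcnh2. Kcna3 and Kcnh1 did not overlap with each other or with the other 3 over the 4 libraries, whereas Kcnip2 overlapped with Kcnh3. At P12 the levels were 261 ± 40.5 (SD, n = 4) for Kcnh1, 139 ± 28.1 for Kcnh2 and 41.8 ± 11.2 for Kcne3. Next came Kcnip3 at 28.2 ± 4.90, Kcnab3 at 24.6 ± 4.09 and Kcna3 at 23.9 ± 2.71. Kcnh1, Kcnh2 and Kcne3 did not overlap with each other or with the rest in the P12 libraries, whereas Kcnip3, Kcnab3 and Kcna3 overlapped. The deposited length of Kcna3 is 1902 bases with 1584 coding bases in its longest complete coding sequence, against 7331 bases with 2967 coding bases for Kcnh1, so the place of Kcna3 above Kcnh1 at P5 holds per kilobase of annotated exon and was the other way in normalized counts.

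Summed over the 40 alpha genes, the per-kilobase level was 1098 to 1176 in the P5 libraries and 615 to 800.3 in the P12 libraries. The share of Kcna3 in this sum ranged from 30.9% to 42.5% among P5 libraries, and at P12 it was 3.39% to 3.65%. Kcnh1 held 19.5% to 21.8% at P5 and 35.9% to 39.7% at P12, although its own level did not pass the test. For Kcnh2 the share went from 3.37% to 4.24% at P5 up to 18.3% to 22.6% at P12. The 12 accessory genes summed to 236 to 339 in the P5 libraries, against 134 to 166 in the P12 libraries. These sums describe the libraries and were not tested.

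**Figure D4:**
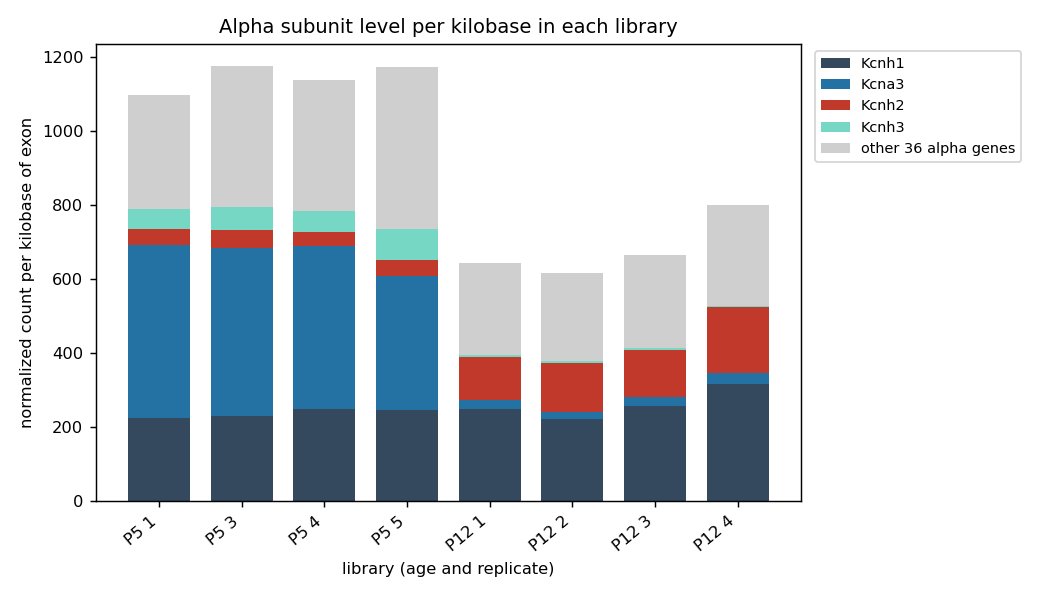
Normalized count per kilobase of exon, stacked over the 40 alpha subunit genes, for each of the 8 libraries (x axis, age and replicate). The Kcna3 block is the largest of the 4 named genes at P5 and small at P12, the Kcnh1 block stays between 221 and 317 in all libraries, and the Kcnh2 block grows from 38.4 to 49.8 at P5 to 118 to 180.5 at P12.

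Markers of other cell types moved with these changes, and their part in the results was not tested. Of 8 neuron and axon markers 6 were lower and none was higher at P12, and their summed level was 2819, 4405, 2976 and 4394 in P5 replicates 1, 3, 4 and 5, and 1192 to 1293 in the P12 libraries. No marker of this list was at 0 in all libraries, and 7 were lower without P5 replicate 5 and P12 replicate 4. Among the 20 members that fell, 9 had their highest P5 value in replicate 5, where 46.1% of all genes lower at P12 were. For replicate 3 or 5 together it was 16 of the 20, where 63.0% of all genes lower at P12 were. Kcna3 was not among these 16, since it was highest in replicate 1 and lowest in replicate 5. Of the same 20 members, 11 were highest at P12 in replicate 4, where 39.5% of all genes lower at P12 were. All 4 secretory ameloblast markers were lower at P12 as well. Their summed level was also highest at P12 in replicate 4, at 621683 against 237041 to 433633 in the other P12 libraries. The 5 skeletal muscle markers that could be tested were all lower too.

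For the members that rose, markers of several other tissues rose as well. Among 6 smooth muscle and pericyte markers 4 were higher and none lower (5 higher without P5 replicate 5 and P12 replicate 4), with summed levels of 2705 to 3126 at P5 and 7264 to 8177 at P12. All 5 endothelial markers were higher, and their summed level was 2452 to 3064 at P5 and 4832 to 5190 at P12. Of 5 Schwann cell markers 4 were higher, from a summed level of 506 to 734 to one of 981 to 1427. The 4 oral epithelium markers were all higher, at 440 to 861 and 3298 to 31165, and were lowest at P12 in replicate 4. Of the 8 members higher at P12, Kcng2 was the 1 that was lowest at P12 in that replicate, where 44.3% of all genes higher at P12 were. Kcnh2 was at 874 and Kcne4 at 60.2 in that replicate. The summed maturation ameloblast markers were highest there, at 477588 against 354258 to 454612 in the other P12 libraries. Which cells these levels came from was not tested.

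Macrophage markers were higher for 2 of 3 genes (summed level 631 to 883 at P5 and 958 to 1299 at P12), and T and B cell markers for 2 of the 2 that could be tested (137 to 249 and 256 to 462). All 3 osteoclast markers were higher (1380 to 2358 and 4320 to 10734). Of the 6 odontoblast and osteoblast markers 1 was higher and 2 were lower, and of the 2 erythroid markers 1 was lower (15780 to 30025 and 14675 to 17618). Without P5 replicate 5 and P12 replicate 4, 2 odontoblast and osteoblast markers were higher and 1 was lower, and both erythroid markers were lower. With total count scaling 3 odontoblast and osteoblast markers were higher and none was lower, and neither erythroid marker passed the threshold.

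The other 14 members did not pass the filter on low counts, and their highest count in any library was 29, for Kcnv1 in P5 replicate 5. Kcnh4 had 16, 16, 2 and 23 counts in the P5 libraries and 2, 1, 3 and 2 in the P12 libraries. Kcns2 had 4, 8, 6 and 8 counts at P5 and 0, 0, 0 and 2 at P12. Kcne2, a partner of Kcnq1 in gastric epithelium, had 6, 4, 3 and 5 counts at P5 and 0, 1, 0 and 1 at P12. Without the filter these 3 genes and Kcnh5, with 2, 2, 0 and 3 counts at P5 and 0 at P12, passed the threshold as lower at P12, with edgeR adjusted p values from 4.0e-04 to 0.045. Kcnh4 also passed the filter and the threshold in 5 of the 8 fits that left out a single library. Kcna4, Kcna5, Kcng3, Kcng4, Kcnh6, Kcnh8, Kcnv1 and Kcnv2 had between 0 and 29 counts in each library, and Kcna10 had 0 counts in all 8 libraries, which allows up to 3 counts per library.

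RefSeq's promoter table for GRCm38.p6 listed start sites for 35 of the 52 members, in 51 windows. The 250 bases before the start of Kcnip2 and of Kcns1 are shown because, among the members of that table with a single listed start, they had the largest fall and the largest rise. Capitals mark GC boxes, the letters GGGCGG on either strand. The windows lie at chr19:45816064-45816313 and chr2:164171114-164171363, both on the reverse strand, and are printed 5′ to 3′ toward the gene.
Kcnip2: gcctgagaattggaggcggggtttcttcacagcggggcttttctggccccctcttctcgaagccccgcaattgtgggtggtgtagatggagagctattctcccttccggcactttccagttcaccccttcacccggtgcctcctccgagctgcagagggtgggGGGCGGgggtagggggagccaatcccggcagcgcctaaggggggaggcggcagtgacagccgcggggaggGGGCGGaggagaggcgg
Kcns1: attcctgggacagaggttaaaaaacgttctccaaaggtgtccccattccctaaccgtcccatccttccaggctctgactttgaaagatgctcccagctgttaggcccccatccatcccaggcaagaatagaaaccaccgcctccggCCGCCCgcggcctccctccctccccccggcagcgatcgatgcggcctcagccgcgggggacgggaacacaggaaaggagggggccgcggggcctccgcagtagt
Bases G and C made up 66.8% of the Kcnip2 window and 63.2% of the Kcns1 window. A GC box was found in 25 of the 51 member windows (49.0%), against 32.7% of all 32851 windows of the table, and the median share of G and C was 59.2% in member windows against 52.4% in all. It was present for 24 of the 35 members listed, 9 of the 13 lower, 3 of the 5 higher, 5 of the 7 not past the threshold and 7 of the 10 not tested. The letters TATAAA on either strand were found in none of the 51 member windows and in 12.4% of all windows. The letters TGACGTCA were in no member window and in 1.55% of all, CACGTG in 7.84% of member windows and 6.02% of all, and CCAAT in 27.5% of member windows and 33.8% of all. These letters describe the windows and say nothing of which factors act there.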

How the data were processed

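The deposited file held whole-number read counts per gene for 8 RNA-seq libraries, not normalized by the authors, with gene coordinates and lengths. The labels describe poly(A) capture, and the submitters' processing notes name CASAVA and the build mm39. However, coordinates and exon lengths of all 52 members equal those of GENCODE M21 for GRCm38, which was used here. The aligner, the counter and its use of strand are not given in the sources used here. Totals lay between 16574548 and 22013456 counts, and a floor of 3 counts covers counting error only.

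Counts were fitted in edgeR 4.0.16 (R 4.3.3; filterByExpr, TMM, glmQLFit, glmQLFTest, no covariate) over 16440 genes with Benjamini-Hochberg adjustment. Standard errors were taken from the fold change and its F statistic. DESeq2 1.42.0, which the study's methods name, and limma-voom (limma 3.58.1) were alternatives, besides other scalings, filters, thresholds, left-out libraries and a replicate block. Normalized counts were scaled to a mean effective library of 19037603. For single members an exact permutation test (two-sided, 70 arrangements of the age labels) was run on log2(normalized count + 1), and its smallest p is 0.029. The fits were tested on simulated data. No 2 libraries of an age looked like 1 library deposited in duplicate, with a chi-square of at least 4.76 per degree of freedom.

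Tested members were named with their log2 fold change, with values per library for members past the threshold of 0.05, for the 10 members of highest mean level and for Kcnh1, which the study names. Some genes that are part of the counts are not reported here by name. The members and lists were chosen with earlier results of these data known. P-values measure the spread between pools.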

Additional observations from a re-analysis of the deposited data

Results flagged for a closer look

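In 3 of 68 combinations of a tested member and an age, where 3.4 are expected by chance, 1 library lay far from the other 3. Kcna6 was at 59.1 in P5 replicate 1 and at 92.3 to 98.4 in the other P5 libraries. Kcnc2 was at 8.999 in P5 replicate 1, against 13.8 to 14.5. Kcnip1 was at 126 in P5 replicate 5, against 68.1 to 73.8. These are normalized counts, and the gap to the nearest library was between 0.844 and 0.902 of the whole range of the 4 libraries.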

How the results depend on the processing

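Of the 28 members past the threshold, 21 stayed past it in every alternative fit that tested them, and none changed direction. Those that did not include Kcnab3, Kcnc1, Kcnc2 and Kcnip4, and, in the fits over 6 libraries, Kcna7 and Kcnh7. DESeq2 and limma-voom both gave 8 members higher and 20 lower. Of all 16440 genes tested, DESeq2 gave 4724 higher and 4673 lower, and limma-voom gave 4641 higher and 4726 lower. Total count scaling gave 13 members higher, with 8877 of all genes higher and 2330 lower, and summed levels per kilobase over all members of 1239.6 at P5 and 935 at P12 (1429 and 835 with TMM). A minimum of 10 counts in every library left 25 members to test, of which 3 were higher and 13 lower. Of all 14252 genes tested in that fit, 4182 were higher and 4162 lower. An adjusted p under 0.01 left 5 members higher and 16 lower, with 3713 of all genes higher and 3709 lower, and a log2 fold change of at least 1 left 1864 genes higher and 1677 lower. Without division by length the summed levels were 6401 at P5 and 4414 at P12. Kcnab2, not past the threshold, changed sign with total count scaling (0.29) and without P5 replicate 3 or P12 replicate 3, with a log2 fold change of -0.25 to 0.069 over the fits that left out 1 library. Leaving out 1 library at a time gave 7 to 8 members higher and 17 to 22 lower, and 4309 to 4938 genes higher and 4364 to 5092 lower. The number of members without overlap was then 26 to 29. Leaving out a library can only keep or raise that number, so this range does not test it. The numbers 1, 3 and 4 occur at both ages. Deviations of same-numbered libraries correlated at 0.04, -0.01 and -0.01, and those of differently numbered libraries at -0.06 to 0.06. So weak a check cannot show whether same-numbered libraries share more than a number. With the replicate block over these 6 libraries 6 members were higher and 16 lower, and the same 6 libraries without it also gave 6 and 16. Of all 16399 genes tested, 3867 were higher and 3843 lower with the block, and 4076 and 4041 without it. The call of Kcnip4 was lost with the block (log2 fold change -0.88, adjusted p = 0.052) and not without it (-0.87, adjusted p = 0.024). The cause of these shifts was not tested. The 14 members left untested had at most 29 counts in any library, where a change was mostly not detectable at this depth.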
